A study of Mus musculus with 45 samples.

Results

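The genes of basement membrane collagens and laminins were followed through 24 RNA-seq samples of mouse embryonic stem cells (ESCs) that lack one or both copies of the lncRNA gene 5430416N02Rik. The 10 members were the type IV collagen chains Col4a1, Col4a2, Col4a5 and Col4a6, the laminin chains Lama1, Lamb1 and Lamc1, the linker nidogen Nid1, the collagen-binding glycoprotein Sparc and the heparan sulfate proteoglycan perlecan, Hspg2. They are 10 of the 33924 genes listed in each table, and all 10 varied between samples in both tables. The group was chosen by symbol, and selected on one measured result, the lower level of Col4a5 in homozygous ΔG cells after retinoic acid. The contrasts that hold this result (homozygous against heterozygous ΔG cells after retinoic acid, the response of homozygous ΔG cells, and the difference between the 2 genotypes' responses in ΔG) are therefore given as a description: no p is printed for them, and where members are counted by the limits used elsewhere, nothing is read from the count.

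The cells were mESC D3, labelled as strain 129 and grown on gelatin without feeder cells in medium with LIF. In ΔG cells a GFP-IRES-Puro cassette stands in place of the lncRNA's gene body, and in ΔPG cells a PGK-puro cassette stands in place of its promoter and gene body. Heterozygous (het) and homozygous (hom) cells of each line were either kept undifferentiated with the solvent DMSO (ES) or induced to differentiate with retinoic acid (RA), with 3 samples in each of the 8 groups. Every group carries at least 1 modified allele and a puromycin cassette, and no unmodified cells were among the RNA-seq groups. The study kept 2 clones of each genotype, and the labels do not say which clone a sample came from, so the part of a single clone in a difference between genotypes was not tested. The replicates are biological per the study's methods. Expression is given as rlog, the regularized logarithm of normalized counts to base 2, and a difference of 1 is a 2-fold change. This transformation shrinks the differences of genes with few reads, and Col4a5 and Col4a6, the weakest members, are affected most. The values hold no read counts, so the depth of each sample is unknown. The 2 lines were normalized separately, and tests were made only within a line.

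A basement membrane is a thin sheet of extracellular matrix under epithelia. Its type IV collagen molecules are trimers, most widely of Col4a1 and Col4a2 chains, with the Col4a5 and Col4a6 chains in a more restricted set of tissues. Its laminin molecules are trimers of an alpha, a beta and a gamma chain, and laminin-111 holds the products of Lama1, Lamb1 and Lamc1. Nidogen links the laminin and collagen networks, perlecan binds both, and Sparc binds collagen. In the early mouse embryo the parietal endoderm, one of the extraembryonic endoderm lineages, is known for making large amounts of this matrix.

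The labels were checked on the targeted gene and on marker lists. The mean rlog value of 5430416N02Rik was 5.54 in het and 2.75 in hom ΔG cells in ES, 5.58 and 2.83 in RA, 4.60 and 2.30 in ΔPG cells in ES, and 4.16 and 2.35 in RA. Of 12 markers of pluripotent cells, 11 were found among the varying genes of each table. Tfcp2l1 was not found there under this symbol, which does not tell an absent symbol from a constant value. The summed level of the 11 on the log2 scale lay between 14.0 and 14.3 in the ES samples and between 10.9 and 11.1 in the RA samples. Trp53, named after its values were seen, went from 7.05 in het to 4.02 in hom ΔPG cells in ES and from 6.04 to 3.83 in RA, while in ΔG cells it lay between 2.28 and 2.62 in all 4 groups. Its values thus differed between het and hom ΔPG cells as well as between the lines, which were normalized separately, and its part in the members' values was not tested.

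**Figure D1:**
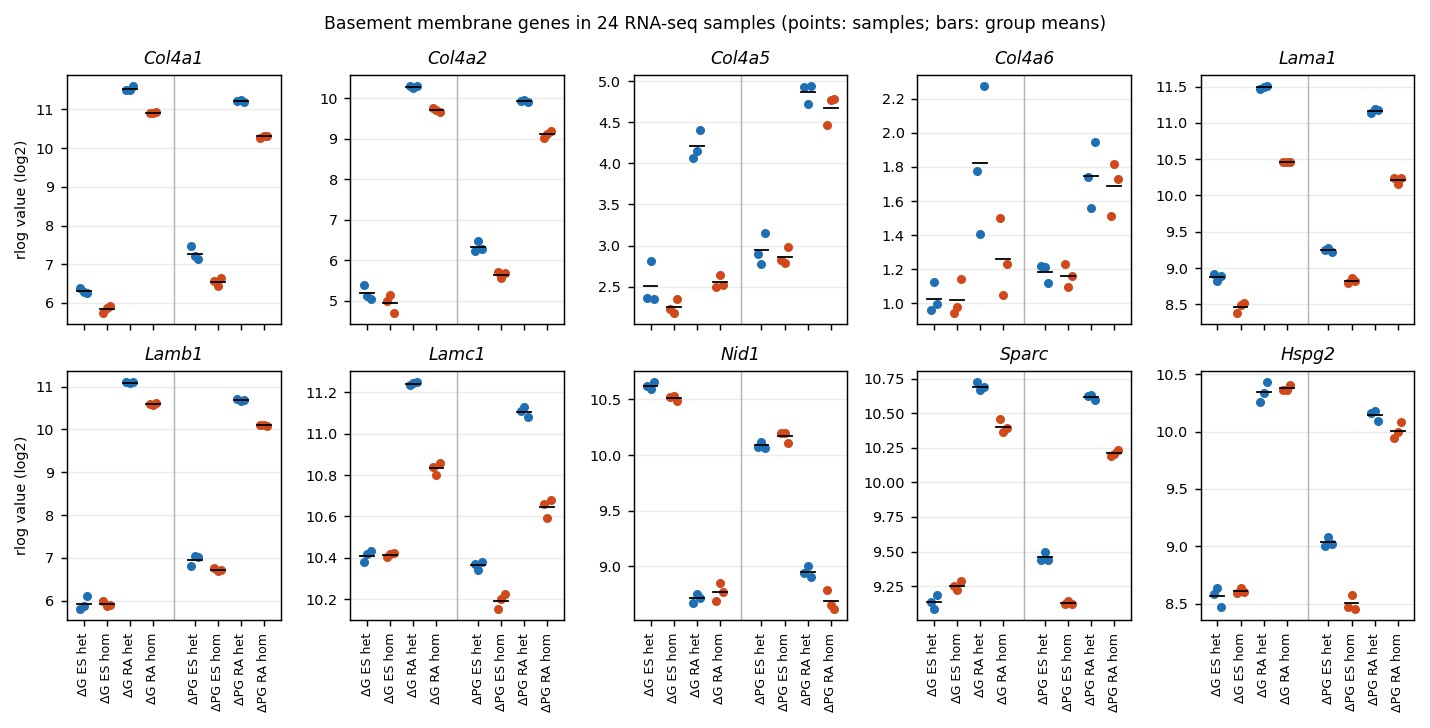
Regularized log (rlog) values (log2, vertical axis, a separate scale for each gene) of the 10 basement membrane genes in the 24 samples, with ΔG groups on the left and ΔPG groups on the right of each panel. Points are samples (blue het, orange hom) and bars are group means (n = 3). Col4a1 lies between 5.75 and 7.47 in ES and between 10.27 and 11.61 in RA, Nid1 runs the other way, and Col4a5 in RA separates the genotypes in ΔG but not in ΔPG.

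The order of the members' levels was compared per kilobase of exon, by subtracting the log2 of each gene's exonic length from its rlog value. In ES cells Nid1, Sparc and Lamc1 held the 3 highest places in all 4 groups, at mean levels of 8.03, 7.38 and 7.36 in het ΔG and 7.49, 7.71 and 7.32 in het ΔPG cells. Sparc and Lamc1 did not separate in het ΔG cells, where Sparc ranged from 7.33 to 7.43 and Lamc1 from 7.33 to 7.38. Lama1 came next (5.63 in het ΔG and 6.00 in het ΔPG), followed by Hspg2 (4.72 and 5.19) and Col4a1 (3.54 and 4.51). Lamb1 and Col4a2 followed in that order of means (2.62 and 2.46 in het ΔG, 3.65 and 3.60 in het ΔPG). Their samples overlapped in both of these groups. Col4a5 and Col4a6 held the last places in every group of both lines. Levels were compared within a line, since the lines were normalized separately. After RA, Sparc was first in all 4 groups (8.94 in het ΔG and 8.87 in het ΔPG), and Nid1 had moved down to place 8 in het ΔG (6.11) and place 7 in het ΔPG (6.35).

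Retinoic acid raised most of the group. Col4a1, Col4a2 and Lamb1 rose the most in both lines, the other members that rose did so by less, in an order that differed between the groups, and Nid1 fell. In the tests below, a gene was called when its Benjamini-Hochberg adjusted p in limma, over all genes tested, was under 0.1 and its log2 difference was over 0.5 in size. In het ΔG cells, 9 of the 10 members were called higher, against 17.7% of all 22048 genes tested, and 1 was called lower, against 11.7%. In het ΔPG cells, 9 were called higher, against 18%, and 1 lower, against 13.6%. In hom ΔPG cells, 8 were called higher, against 16.5%, and 1 lower, against 11.3%. A mean rlog of at least 3 was reached by 11997 genes in ΔG and 11904 in ΔPG, and by 8 and 9 of the 10 members. The shares over all genes, here and below, thus include many weaker genes, whose differences rlog shrinks. The median difference of the members was 1.74 in het ΔG, 1.54 in het ΔPG and 1.45 in hom ΔPG cells, beside 0.04, 0.01 and 0.01 over all genes tested.

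**Figure D2:**
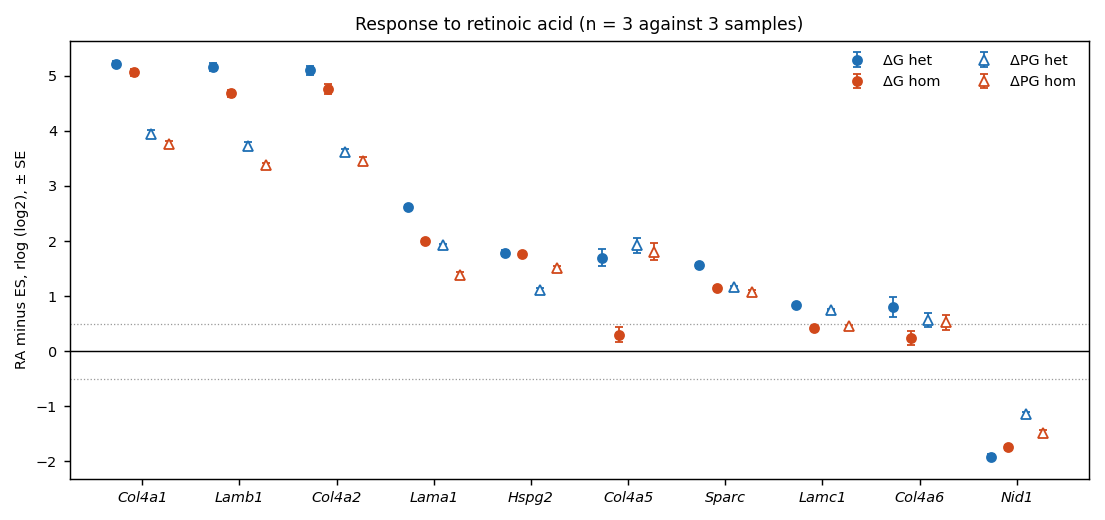
Difference between RA and ES (log2, vertical axis) for each member in ΔG (circles) and ΔPG (triangles) cells, het in blue and hom in orange, with the standard error of the fit as bars (n = 3 against 3). Dotted lines mark 0.5 and -0.5. Col4a1, Lamb1 and Col4a2 stand apart from the others in all 4 responses, Nid1 lies below 0 in all 4, and Col4a5 of hom ΔG cells, at 0.30, lies far below its other 3 values.

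Among the collagen chains, Col4a1 stood at 6.39, 6.29 and 6.26 in the 3 het ΔG samples in ES and at 11.50, 11.49 and 11.61 in RA. Every RA sample was above every ES sample, and the log2 difference was 5.22 (SE 0.056, limma adjusted p = 8.1e-16), a 37.3-fold rise and the eighth largest of 22048 genes. In het ΔPG cells Col4a1 went from 7.47, 7.22 and 7.14 to 11.23, 11.24 and 11.19, a difference of 3.94 (SE 0.078, limma adjusted p = 2.1e-08). Hom ΔPG cells went from 6.57, 6.43 and 6.63 to 10.27, 10.32 and 10.32, a difference of 3.76 (SE 0.058, limma adjusted p = 2.1e-12). Col4a2, whose chain assembles with that of Col4a1, moved with it. It went from 5.39, 5.12 and 5.04 to 10.30, 10.25 and 10.30 in het ΔG cells, a difference of 5.10 (SE 0.085, limma adjusted p = 3.5e-14). Its differences were 3.61 (SE 0.064) in het and 3.46 (SE 0.070) in hom ΔPG cells.

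Col4a5 went from 2.37, 2.81 and 2.35 to 4.07, 4.14 and 4.40 in het ΔG cells, a difference of 1.70 (SE 0.16, limma adjusted p = 6.6e-07). In ΔPG cells it rose by 1.92 (SE 0.14, limma adjusted p = 1.3e-05) in het and by 1.80 (SE 0.15, limma adjusted p = 1.9e-06) in hom samples. Col4a6 was the weakest member, between 0.95 and 1.23 in all 12 ES samples. It rose by 0.80 (SE 0.18) in het ΔG, 0.56 (SE 0.12) in het ΔPG and 0.52 (SE 0.14) in hom ΔPG cells (limma adjusted p = 0.0024, 0.0064 and 0.0075). The call in het ΔPG cells was lost with quantile normalization (0.40) and without het RA replicate 3 (0.47). The call in hom ΔPG cells was lost with quantile normalization (0.35) and without hom ES replicate 2 (0.49) or hom RA replicate 2 (0.46).

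The 3 laminin chains responded unequally. Lamb1, the beta chain, went from 5.81, 5.87 and 6.10 to 11.10, 11.09 and 11.10 in het ΔG cells, a difference of 5.17 (SE 0.072, limma adjusted p = 8.2e-15). In ΔPG cells it rose by 3.73 (SE 0.064) in het and 3.38 (SE 0.045) in hom samples (limma adjusted p = 1.1e-08 and 7.4e-13). Lama1, the alpha chain, went from 8.92, 8.82 and 8.90 to 11.47, 11.49 and 11.51 in het ΔG cells, a difference of 2.62 (SE 0.039, limma adjusted p = 1.4e-14). Its rise was 1.92 (SE 0.023) in het and 1.39 (SE 0.039) in hom ΔPG cells. Lamc1, the gamma chain, was already high in ES cells, between 10.15 and 10.43 in all 12 samples. It rose by 0.83 (SE 0.030) in het ΔG and 0.74 (SE 0.019) in het ΔPG cells. In hom ΔPG cells its difference of 0.45 (SE 0.034, limma adjusted p = 6.1e-07) stayed under the limit of 0.5, and quantile normalization moved it to 0.69.

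Of the other members, Sparc rose by 1.56 (SE 0.041) in het ΔG, 1.16 (SE 0.024) in het ΔPG and 1.08 (SE 0.034) in hom ΔPG cells. Hspg2 rose by 1.78 (SE 0.056), 1.11 (SE 0.033) and 1.51 (SE 0.049) in the same order. Nid1 went the other way, from 10.63, 10.59 and 10.65 to 8.67, 8.75 and 8.72 in het ΔG cells. Its difference was -1.91 (SE 0.042, limma adjusted p = 5.5e-13) there, -1.14 (SE 0.032, limma adjusted p = 1.2e-07) in het ΔPG and -1.48 (SE 0.050, limma adjusted p = 8.0e-10) in hom ΔPG cells. All RA samples of Nid1 lay below all ES samples in both lines.

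The genes of the largest rises, the exception Nid1 and the pair with Col4a5 are shown by their promoter sequence, since these members move together or apart in the data. The type IV collagen genes are arranged as pairs of neighbors that point away from each other. In NCBIM37, Col4a1 (chr8:11198423-11312826, minus strand) and Col4a2 (chr8:11312805-11449287, plus strand) overlap by 22 bp. Col4a5 (chrX:137909928-138123778, plus strand) and Col4a6 (chrX:137599946-137908619, minus strand) lie 1308 bp apart. The laminin genes Lama1 (chr17:68046605-68171985, plus strand), Lamb1 (chr12:31950099-32014509, plus strand) and Lamc1 (chr1:155066052-155179916, minus strand) lie on different chromosomes. RefSeq (GRCm38.p6) gave a promoter window, 250 bases before to 50 after the start, for 8 of the 10 members, and for Lama1 and Lamc1 none was used. The windows of Col4a1 and Col4a2 share 78 bp. The windows of Col4a1 (chr8:11312777-11313076, minus strand), Col4a2 (chr8:11312555-11312854, plus strand), Lamb1 (chr12:31265043-31265342, plus strand), Nid1 (chr13:13437352-13437651, plus strand), Col4a5 (chrX:141475169-141475468, plus strand) and Col4a6 (chrX:141474027-141474326, minus strand) read as follows, 5′ to 3′ on the gene's strand, with capitals for each match to GGGCGG (the GC box) or CCAAT on either strand.
Col4a1: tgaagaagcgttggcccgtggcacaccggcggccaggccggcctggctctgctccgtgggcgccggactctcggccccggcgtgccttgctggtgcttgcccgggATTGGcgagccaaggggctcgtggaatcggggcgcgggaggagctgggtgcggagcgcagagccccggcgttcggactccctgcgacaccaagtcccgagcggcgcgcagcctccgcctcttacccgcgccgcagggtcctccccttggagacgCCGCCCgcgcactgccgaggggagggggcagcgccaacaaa
Col4a2: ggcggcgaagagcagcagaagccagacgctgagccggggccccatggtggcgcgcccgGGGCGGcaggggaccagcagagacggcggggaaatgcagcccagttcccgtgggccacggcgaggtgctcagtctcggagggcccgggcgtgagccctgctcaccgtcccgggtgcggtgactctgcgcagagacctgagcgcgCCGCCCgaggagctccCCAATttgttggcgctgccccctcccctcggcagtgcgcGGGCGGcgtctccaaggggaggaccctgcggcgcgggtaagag
Lamb1: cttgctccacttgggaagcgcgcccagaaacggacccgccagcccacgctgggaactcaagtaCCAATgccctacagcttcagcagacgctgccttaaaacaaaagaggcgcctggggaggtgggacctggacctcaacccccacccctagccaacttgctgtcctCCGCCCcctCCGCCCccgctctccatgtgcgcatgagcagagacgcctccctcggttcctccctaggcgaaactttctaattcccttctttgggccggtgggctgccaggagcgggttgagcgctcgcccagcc
Nid1: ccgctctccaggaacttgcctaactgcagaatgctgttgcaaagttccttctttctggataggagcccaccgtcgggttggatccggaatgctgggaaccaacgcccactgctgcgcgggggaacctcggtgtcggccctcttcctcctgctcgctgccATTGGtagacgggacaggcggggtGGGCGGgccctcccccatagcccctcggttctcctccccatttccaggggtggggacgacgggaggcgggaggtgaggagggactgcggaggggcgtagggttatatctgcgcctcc
Col4a5: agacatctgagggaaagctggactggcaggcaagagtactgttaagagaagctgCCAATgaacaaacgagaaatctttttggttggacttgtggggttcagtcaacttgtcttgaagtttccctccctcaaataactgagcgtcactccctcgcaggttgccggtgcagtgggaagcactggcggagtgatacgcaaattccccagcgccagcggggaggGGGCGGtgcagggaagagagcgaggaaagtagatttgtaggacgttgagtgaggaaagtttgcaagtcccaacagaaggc
Col4a6: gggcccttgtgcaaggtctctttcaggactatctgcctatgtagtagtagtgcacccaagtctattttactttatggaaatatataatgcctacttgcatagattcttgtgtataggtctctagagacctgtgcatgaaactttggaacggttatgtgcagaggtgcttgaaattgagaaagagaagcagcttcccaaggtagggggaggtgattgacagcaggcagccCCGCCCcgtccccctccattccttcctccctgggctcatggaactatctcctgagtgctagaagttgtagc

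GGGCGG was found on either strand in 7 of the 8 windows (not in that of Sparc), and in 35.7% of the 32851 promoter windows of the same length. The only match in the Col4a1 window lies in the stretch shared with Col4a2 and is the same site as 1 of the 3 matches there. CCAAT was in 5 of 8 (those of Col4a1, Col4a2, Col4a5, Lamb1 and Nid1), and in 37.4% of all windows. TATAAA and AGGTCA were in none of the 8, and in 13.6% and 16.3% of all windows. The window of Nid1, which fell, holds both GGGCGG and CCAAT, as do those of Col4a1, Col4a2 and Lamb1, which rose the most. The GC content of the windows ran from 48.3% in Col4a6 to 74.0% in Col4a1.

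The balance of chain transcripts is given as a description, without a test. In ES cells Lamb1 stood 4.74 ± 0.13 (SD, n = 3) below Lamc1 per kilobase of exon in het ΔG and 3.67 ± 0.15 below it in het ΔPG cells, both on the log2 scale. After RA the gap was 0.41 ± 0.013 in het ΔG and 0.68 ± 0.039 in het ΔPG cells. Lama1 stood 1.74 ± 0.069 below Lamc1 in het ΔG cells in ES, and 0.05 ± 0.013 above it in RA. In het ΔPG cells Lama1 went from 1.32 ± 0.046 to 0.14 ± 0.034 below Lamc1. The 3 chains of laminin-111 were thus within 0.7 of each other in het cells of both lines after RA. In hom cells Lama1 stood lower relative to Lamc1 than in het cells in ES in both lines, and after RA in ΔPG. Lama1 less Lamc1 was -2.15 ± 0.059 in hom ΔG and -1.57 ± 0.038 in hom ΔPG cells in ES. In hom ΔPG cells after RA it was -0.63 ± 0.013. In each of these the hom samples did not overlap with the het samples of the same line and condition. The ES contrast of ΔPG cells followed exonic GC content, as described below. Its hom minus het differences were -0.42 for Lama1 and -0.17 for Lamc1, and -0.18 and -0.03 with that trend removed. In hom ΔG cells after RA, Lama1 less Lamc1 was -0.58 ± 0.027. This value comes from a contrast used in choosing the group, and nothing is read from it. Col4a1 was above Col4a2 in all 8 groups, by group means of 0.85 to 1.24. Col4a5 was above Col4a6 by 1.49 to 2.01 in the 4 ES groups, and by 3.37 ± 0.10 and 3.24 ± 0.063 in het and hom ΔPG cells after RA.

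**Figure D3:**
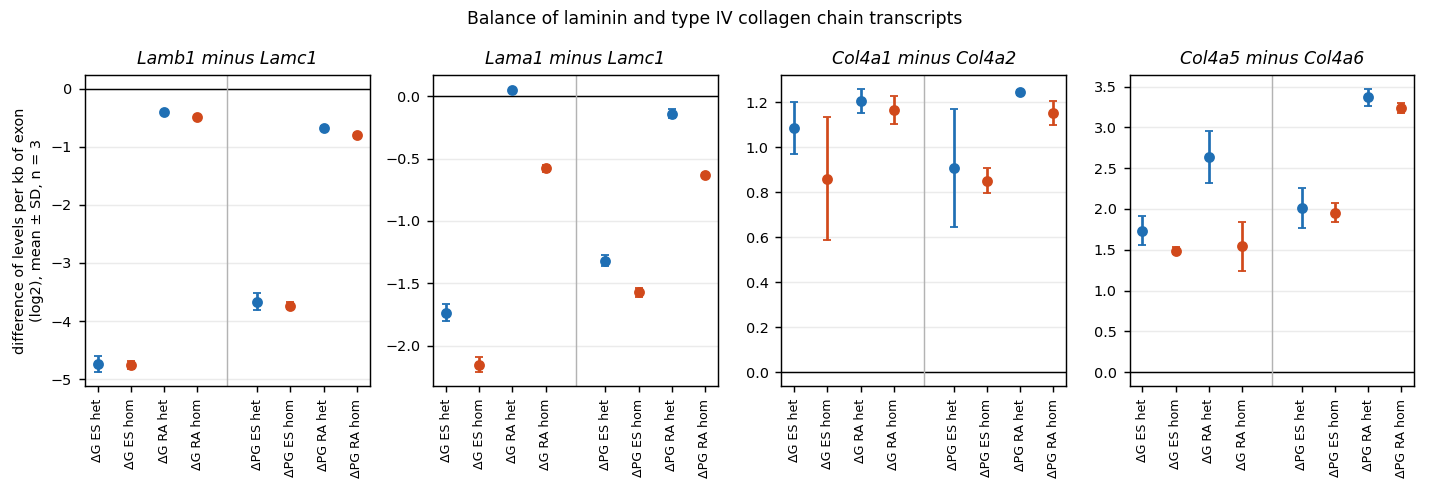
Difference between the levels of 2 chains per kilobase of exon (log2, vertical axis) in the 8 groups, as mean ± SD of 3 samples (blue het, orange hom). Lamb1 rises from 4.74 and 3.67 below Lamc1 in het ES cells to less than 1 below it in RA. Lama1 of hom cells lies lower relative to Lamc1 than that of het cells in ES in both lines, and in RA in ΔPG. In RA it lies 0.63 below Lamc1 in hom ΔPG cells. The hom ΔG values in RA come from a contrast used in choosing the group, and nothing is read from them. All values are shown without removal of a GC trend. Col4a1 keeps above Col4a2 in every group.

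Lists of related genes were read for the same response. Of the other basement membrane genes, 14 of the 31 tested in het ΔG cells were called higher and 6 lower, and in het ΔPG cells 10 of 32 higher and 4 lower. The peroxidasin gene Pxdn rose by 4.27 and Smoc2 by 4.00 in het ΔG cells, and by 3.58 and 3.46 in het ΔPG cells. Of 23 matrix receptors, 17 in het ΔG and 16 in het ΔPG cells were called higher, led by the glypicans Gpc1 (3.09) and Gpc3 (2.73) in ΔG and Gpc3 (2.33) and Gpc1 (1.96) in ΔPG. Of 27 genes of collagen folding, modification, export and crosslinking tested, 11 in het ΔG and 13 in het ΔPG cells were higher and 2 in each lower. They were led by Fkbp10 (2.85) and the collagen chaperone Serpinh1 (2.77) in ΔG and by Leprel1 (2.58) in ΔPG. Of the genes of matrix degradation, 13 of 20 and 15 of 19 were higher and 1 in each lower, with the gelatinase Mmp2 up by 4.97 and 3.49. Fibrillar and other interstitial collagens rose too (15 of 16 and 13 of 16), Col1a2 by 5.43 and Col3a1 by 4.57 where each led. In hom ΔPG cells the counts higher and lower were 13 and 4 for other basement membrane genes, 16 and 0 for matrix receptors, 11 and 2 for collagen folding, modification, export and crosslinking, 13 and 1 for degradation, and 15 and 0 for interstitial collagens.

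Markers of cell types moved with these genes. Of 20 markers of extraembryonic endoderm, 16 were called higher and 1 lower (Apoe, named after its values were seen) in het cells of both lines, led by Cubn (6.15 in ΔG, 4.96 in ΔPG), which encodes an endocytic receptor of visceral endoderm. Of 13 markers of fibroblasts or mesenchyme, which share 3 collagen genes with the list above, 11 in het ΔG and 9 in het ΔPG cells were higher, and 1 and 2 lower. All 11 tested markers of pluripotent cells were lower. No endoderm marker had a group mean under 1 in any group. The summed level of the endoderm list, to which abundant genes contribute most, lay between 11.66 and 11.72 in ES and between 12.24 and 12.27 in RA in het ΔG samples. In het ΔPG samples it lay between 12.1 and 12.17 in ES and between 11.9 and 11.93 in RA. In het ΔPG cells, of the markers of other lineages tested, 4 of 9 neural, 2 of 8 mesoderm, 5 of 7 trophoblast and 4 of 6 endothelial genes were higher, and 1, 2, 0 and 1 lower. The defining genes Hes5, Neurog2 and Fabp7 (neural), Mixl1, Tbx6 and Msgn1 (mesoderm), Elf5 (trophoblast) and Emcn (endothelium) had group means under 1 in all 8 groups, and the part of each cell type in the members' rise was not tested. In RNA from whole cultures, more cells of a type and more RNA per cell cannot be told apart.

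The homozygous ΔPG cells held less of several members after RA than the heterozygous ones. This contrast was not used to choose the group, but the members were chosen with earlier results of these data known. Col4a1, Col4a2, Lama1 and Lamb1 were called lower, 4 of 10 members against 0.605% of all 21979 genes tested. None was called higher (0 also at an unadjusted p under 0.05), against 0.241%. All 10 differences were below 0, with a median of -0.44 beside 0.01 over all genes. Lama1 stood at 11.14, 11.19 and 11.18 in het and 10.24, 10.16 and 10.24 in hom samples. The groups did not overlap, and the difference was -0.95 (SE 0.029, 95% interval -1.02 to -0.89, limma adjusted p = 1.3e-07). Col4a1 differed by -0.92 (SE 0.025, limma adjusted p = 8.7e-08) and Col4a2 by -0.82 (SE 0.042, limma adjusted p = 7.2e-06). Col4a2 samples were at 9.93, 9.96 and 9.90 in het and 9.02, 9.12 and 9.18 in hom cells. Lamb1 went from 10.71, 10.67 and 10.69 to 10.11, 10.10 and 10.09, a difference of -0.59 (SE 0.024, limma adjusted p = 1.2e-06).

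Lamc1 (-0.46), Sparc (-0.41) and Nid1 (-0.26) also differed at a limma adjusted p of 1.5e-05, 2.1e-05 and 0.023, within the limit of 0.5. Lamc1 passed it (-0.57) with quantile normalization. Hspg2 differed by -0.13 (95% interval -0.22 to -0.05, limma adjusted p = 0.13). For the X-linked pair no difference was detected. Col4a5 stood at 4.93, 4.73 and 4.94 in het and 4.46, 4.77 and 4.79 in hom samples, which overlap, a difference of -0.19 (95% interval -0.48 to 0.09, limma adjusted p = 0.58). Col4a6 differed by -0.06 (95% interval -0.41 to 0.29, limma adjusted p = 0.91).

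**Figure D4:**
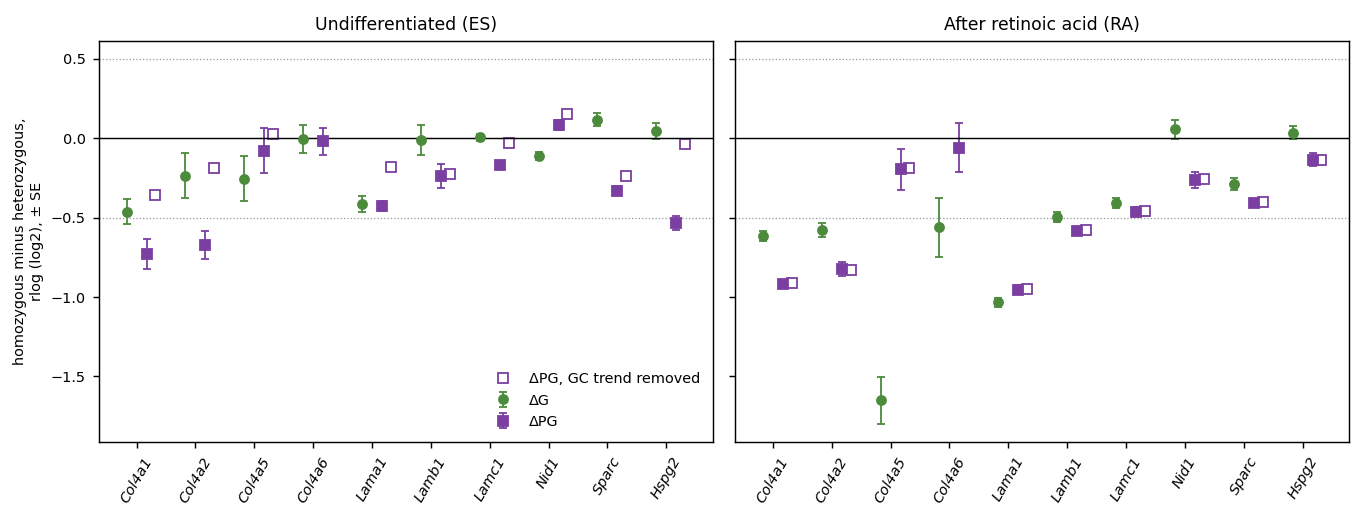
Difference between hom and het cells (log2, vertical axis) in ES (left) and RA (right), ΔG as green circles and ΔPG as filled purple squares, with standard errors as bars (n = 3 against 3). Open squares are the ΔPG differences after the trend with GC content was removed (none for Col4a6). Dotted lines mark 0.5 and -0.5. In RA the open and filled squares coincide, with Lama1 at -0.95 and Col4a1 at -0.92, whereas in ES the differences of Col4a1, Col4a2 and Hspg2 move toward 0 when the trend is removed.

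Markers of extraembryonic endoderm moved in the same contrast. Of the 20, 6 were called lower in hom ΔPG cells after RA by limma and none was higher (1 at an unadjusted p under 0.05), and 19 of 20 differences were below 0, with a median of -0.42. Cubn differed by -1.24, Ttr by -0.94 and Foxq1 by -0.93. The summed level of the list lay between 11.9 and 11.93 in het samples and between 11.55 and 11.58 in hom samples. The list of fibroblast or mesenchyme markers had 3 of 13 genes lower (Acta2, Col3a1 and Tagln), with summed levels from 12.35 to 12.36 in het and of at most 12.07 in hom samples. The part of these markers in the members' difference was not tested. Of the 32 other basement membrane genes, 23 matrix receptors, 27 collagen folding and crosslinking genes and 19 matrix degradation genes tested, none was called in either direction by limma. At an unadjusted p under 0.05, 3, 2, 2 and 2 of them were higher and 6, 8, 13 and 6 lower. Of 16 fibrillar and other interstitial collagens, Col3a1 (-0.67) and Col5a2 (-0.57) were called lower.

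In undifferentiated ΔPG cells Col4a1 (-0.73, SE 0.096), Col4a2 (-0.67, SE 0.088) and Hspg2 (-0.53, SE 0.043) were called lower in hom than in het samples (limma adjusted p = 0.00064, 0.00065 and 5.4e-05). These are 3 of 10 members against 6.29% of all genes tested, and none was called higher by limma (1 at an unadjusted p under 0.05), against 6.87%. Hspg2 stood at 9.00, 9.08 and 9.02 in het and 8.47, 8.58 and 8.45 in hom samples, without overlap. The differences of this contrast followed the GC content of the exons, with a Pearson correlation of -0.71 across 11904 genes, which are not independent replicates and come from the same 6 samples. Exonic GC content was 57.0% in Col4a1, 60.4% in Col4a2 and 60.9% in Hspg2, beside a median of 50.0% over genes with a mean rlog of at least 3. After a smooth GC trend was removed, none of the 3 was called, with differences of -0.36 for Col4a1, -0.19 for Col4a2 and -0.03 for Hspg2. The corresponding correlation in the RA contrast was -0.0011, and the same 4 members were called there with the trend removed (Lama1 -0.95, Col4a1 -0.91, Col4a2 -0.83, Lamb1 -0.58).

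Lama1, at 9.25, 9.28 and 9.22 in het and 8.80, 8.86 and 8.82 in hom ΔPG samples in ES, differed by -0.42 (limma adjusted p = 3.5e-05), and by -0.18 with the GC trend removed. Sparc (-0.33), Lamb1 (-0.24) and Lamc1 (-0.17) were lower and Nid1 (0.08) higher at adjusted p values from 7.7e-05 to 0.088 in limma, all inside the limit of 0.5. Among the other lists, 6 of 32 other basement membrane genes and 7 of 23 matrix receptors were called lower, as were 1 of 27 collagen folding, modification, export and crosslinking genes, 3 of 19 degradation genes and 5 of 16 interstitial collagens. None of these lists had a gene called higher by limma, against 1, 3, 4, 2 and 0 at an unadjusted p under 0.05. The other basement membrane genes and the receptors were led by Col18a1 (-0.73) and Hmcn2 (-0.70), and by the syndecans Sdc1 (-1.22) and Sdc4 (-1.04). Of the 20 endoderm markers, Pdgfra was higher (0.56) and Apoe lower (-0.64), and the summed level lay between 12.1 and 12.17 in het and between 11.52 and 11.58 in hom samples. Of the markers of other cells, the pluripotency gene Pou5f1 (-0.52) and the neural genes Tubb3 (-0.72) and Nes (-0.65) were called lower, and at an unadjusted p under 0.05, 7 of the 11 pluripotency markers were lower and 2 higher. No marker of mesoderm, mesenchyme, trophoblast or endothelium was called by limma, against 0, 1, 0 and 0 higher and 0, 1, 1 and 2 lower at an unadjusted p under 0.05. The part of these markers, and of the GC trend in the lists, was not tested.

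In undifferentiated ΔG cells no member was called, beside 0.63% of all 22048 genes called lower and 0.354% called higher by limma. Without the limit of 0.5, 3 members were lower at the same adjusted p in limma and none was higher, beside 624 and 528 of all 22048 genes. At an unadjusted p under 0.05 in limma, 3 members were lower and 1 higher. Lama1 stood at 8.92, 8.82 and 8.90 in het and 8.39, 8.49 and 8.51 in hom samples, which do not overlap, a difference of -0.41 (SE 0.050, limma adjusted p = 0.0076). Col4a1 differed by -0.46 (SE 0.079, limma adjusted p = 0.029), and it passed the limit at -0.50 when hom ES replicate 3 was left out. Nid1 differed by -0.11 (limma adjusted p = 0.062). The intervals of the remaining 7 included 0 except that of Sparc, which was 0.12 higher in hom cells (95% interval 0.03 to 0.21, limma adjusted p = 0.20). Col4a5 was at 2.37, 2.81 and 2.35 in het and 2.23, 2.19 and 2.35 in hom samples, a difference of -0.25 (95% interval -0.58 to 0.08, limma adjusted p = 0.48). Of 27 genes of collagen folding, modification, export and crosslinking, 4 were called lower in the same cells, among them the lysyl oxidase-like Loxl2 (-1.14), the prolyl hydroxylase P4ha2 (-1.07) and the collagen chaperone Serpinh1 (-0.67). Of the other basement membrane genes Pxdn (-0.84) and of the receptors Gpc3 (-0.62) were called lower.

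Whether the genotype difference of ΔPG cells changed with RA was tested by the interaction term of a fit to that line's 12 samples. Lama1 was the member called lower, 1 of 10 against 7.19% of all genes tested, and none was called higher, against 6.72%. Its genotype difference in RA minus that in ES was -0.53 (SE 0.044, 95% interval -0.62 to -0.44, limma adjusted p = 8.8e-07). Lamb1 (-0.35), Nid1 (-0.35) and Lamc1 (-0.29) moved the same way and Hspg2 (0.40) the other way, at limma adjusted p values of 0.0031, 0.00089, 6.5e-05 and 0.00022, all inside the limit of 0.5. Col4a1 (-0.19, 95% interval -0.40 to 0.03) and Col4a2 (-0.15, 95% interval -0.35 to 0.06) did not pass the test (limma adjusted p = 0.22 and 0.32). This contrast carried the GC trend of its ES arm (Pearson correlation 0.69 over 11904 genes). With the trend removed, Lama1 (-0.77), Col4a2 (-0.64) and Col4a1 (-0.55) were called, and Hspg2 turned to -0.11. With a trend in exonic length removed instead, Lama1 was not called (-0.45) and Hspg2 was (0.53). These contrasts share their samples with the genotype differences and responses above.

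The values that chose the group lie in ΔG cells after RA. Col4a5 stood at 4.07, 4.14 and 4.40 in the het and at 2.50, 2.65 and 2.52 in the hom RA samples. In ES, het samples stood at 2.37, 2.81 and 2.35 and hom samples at 2.23, 2.19 and 2.35. The hom RA samples lay above all hom ES samples, and of the het ES samples only replicate 2 lay above them. The difference was -1.65 (SE 0.15), a 3.14-fold lower value in hom cells. Lama1, with 11.47, 11.49 and 11.51 in het and 10.46, 10.46 and 10.46 in hom samples, differed by -1.03 (SE 0.031). Col4a1 differed by -0.62, Col4a2 by -0.58 and Col4a6 by -0.56. The limits used above take in 5 of 10 members as lower and 1.46% of all genes, and none as higher and 0.676% of all genes. Since this contrast was used in choosing the group, nothing is read from that count.

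Col4a6, which shares its upstream region with Col4a5, was at 1.78, 1.41 and 2.28 in het and 1.5, 1.05 and 1.23 in hom RA samples. These overlap, and without het RA replicate 3 the difference was -0.33. Lamb1 (-0.49), Lamc1 (-0.41) and Sparc (-0.29) stood inside the limit, and Nid1 (0.06) and Hspg2 (0.04) lay near 0. In ΔPG cells after RA the value of Col4a5 was -0.19 and that of Lama1 -0.95. The lines were normalized separately, and the difference between them was not tested. Since Col4a5 overlaps the gene model Gm15268 and Col4a6 the model Gm15077 on the same strand, reads in the shared stretches could be left out of or assigned to either gene.

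The response of hom ΔG cells to RA, and its difference from that of het cells, hold the same values. Col4a1 rose by 5.07, Col4a2 by 4.76 and Lamb1 by 4.68, and Nid1 fell by 1.74. Col4a5 rose by 0.30, Lamc1 by 0.42 and Col4a6 by 0.24. The limits take in 6 of 10 members as higher and 1 as lower, and 17% and 12.1% of all genes. The genotype difference in RA less that in ES was -1.40 for Col4a5 and -0.62 for Lama1. In it the limits take in 2 members as lower and none as higher, and 1.18% and 1.19% of all genes. Nothing is read from these counts, which hold the values that chose the group. Of the 20 endoderm markers, Cubn (-1.15), Dab2 (-0.70) and Pdgfra (-0.66) were lower in hom ΔG cells after RA. The summed level of that list was 12.24 to 12.27 in het and 11.96 in all 3 hom samples. In the same samples the endothelial markers Cdh5 (0.81), Tie1 (0.64) and Kdr (0.57), the mesoderm marker Hand1 (0.81), the neural marker Tubb3 (0.99) and the trophoblast marker Krt7 (0.77) were higher, and the mesenchymal markers Col1a2 (-1.41) and Prrx1 (-0.67) lower. Of the matrix lists, 3 interstitial collagens were lower (Col1a2, Col27a1 and Col12a1), and among other basement membrane genes Smoc2 (-0.73) and Fras1 (-0.71) were lower and Tinagl1 (1.17) higher. The part of these markers in the members' values was not tested.

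Across the 12 samples of a line the members largely followed each other, which rests on the split between ES and RA samples that they share. The median Pearson correlation of the 45 pairs was 0.85 in ΔG and 0.94 in ΔPG cells. Nid1 was inversely related to every other member, from -0.645 (Col4a5) to -0.996 (Hspg2 and Lamb1) in ΔG. Col4a5 followed Lama1 at 0.84 in ΔG and 0.93 in ΔPG cells. The genes most like the mean profile of the members with a mean rlog of at least 3 were Dcn, Ccnd2, Shisa3, Smoc2 and Fras1 in ΔG (Pearson correlation 0.998 to 0.999, 8 members, 12 samples, 11997 genes searched). In ΔPG they were Grlf1, Usp22, Ddc, Fam168b and Mttp (0.996 to 0.998, 9 members, 11904 genes searched). Smoc2 and Fras1 also belong to the list of other basement membrane genes.

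The 4C-seq data list the regions that contact a bait at the promoter of 5430416N02Rik in 2 replicates of ESCs, and hold no expression values. The study's methods name mm9 for these reads, but most deposited region starts lay at HindIII sites of NCBIM37 after a shift from GRCm38 and few did without it, so the overlaps depend on the build. Read as GRCm38, Lamc1, Hspg2, Lama1 and Col4a6 overlapped a region in both replicates, 4 of 10 members beside 38.9% of all 21631 protein-coding genes. This share is near that of all genes. Read as NCBIM37, the build of mm9, 1 member (Hspg2) overlapped a region in both replicates, beside 36.6% of 22350 protein-coding genes. Read as GRCm38, Sparc and Col4a5 overlapped a region in replicate 1 only and Lamb1 in replicate 2 only, and Col4a1, Col4a2 and Nid1 in neither. With the whole gene required inside a region, Col4a6 dropped out and 3 members were left, beside 37.7% of protein-coding genes.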

How the data were processed

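RNA-seq was read in 24 samples of mouse ESCs (8 groups of 3), and 4C-seq contact regions in 2 replicates. The Capture-C and RIP-seq samples were not used here. The authors made the log2 values by aligning reads of strand-specific libraries to mm9 (TopHat2 2.1.0), removing duplicates (Picard), counting (HTSeq 0.6.0) and applying the rlog transformation of DESeq2 (1.14.1), per the study's methods and the submitters' processing notes. These tables hold no counts, so the depth is unknown and no count test was used. All columns were mapped to samples (0 were not).

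Each contrast was fitted with limma 3.58.1 (R 4.3.3; lmFit, eBayes with a variance trend) on its 6 samples, or 12 for an interaction, over every gene that varied (22048 in ΔG, 21979 in ΔPG), with Benjamini-Hochberg adjustment. A call needed an adjusted p under 0.1 and a log2 difference over 0.5, limits taken from the study's supplementary material. The study's methods name an adjusted p under 0.05 and a fold over 1.5 for RIP-seq, and a similar treatment of RNA-seq. Those are the stricter limits used as an alternative here. The fit was tested on simulated data. The members and all lists were chosen with earlier results of these data known. All 10 members are named, and of the other lists (other basement membrane genes; matrix receptors; collagen folding, modification, export and crosslinking; matrix degradation; fibrillar and other interstitial collagens; markers of pluripotent, extraembryonic endoderm, neural, mesoderm, mesenchymal, trophoblast and endothelial cells) at most the 3 called genes with the largest difference. A marker list's summed level is the log2 of the sum of its genes' values on the linear scale.

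Replicate numbers were treated as names only. Alternatives were other limits, a floor on mean rlog of 3, quantile normalization, no variance trend, all 12 samples in one fit, removal of GC or length trends by lowess, a replicate block, and leaving out each sample. Exonic lengths and GC content came from an annotation of NCBIM37, the build of mm9. The study's methods map 4C reads to mm9, but the 4C positions were read as GRCm38, since 28 of 680 region starts lay within 6 bp of a HindIII site of NCBIM37 as deposited, against 501 of 668 after a shift taken from nearby genes.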

Additional observations from a re-analysis of the deposited data

Results flagged for a closer look

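For Lama1, the laminin alpha chain, the genotype difference of ΔPG cells in RA less that in ES was -0.5296 on the log2 scale, and this difference was itself tested (limma). The call was lost with the length trend removed and with the stricter limits, and 1 of 10 members is near the 7.19% of all genes called lower in this contrast.

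Sparc, the collagen-binding glycoprotein, went in opposite directions in groups whose samples did not overlap. In ΔG cells its hom minus het difference was 0.1175 in ES and -0.2899 in RA. In undifferentiated cells it was 0.1175 in ΔG and -0.3312 in ΔPG, in lines that were normalized separately. These differences between conditions and between lines were not tested. The difference in undifferentiated ΔG cells did not pass the adjusted test, and the value in ΔG after RA comes from a contrast used to choose the group. Groups of 3 samples were too small for a check of single samples that stand apart.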

How the results depend on the processing

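Of 1555 member values under the alternatives, 1472 kept direction and call, 21 lost the call, 38 were newly called (24 of them with no limit on the difference) and 24 changed sign, all of them uncalled and at most 0.105 in size. With no limit on the difference, the members called lower numbered 7 of 10 in undifferentiated ΔPG cells (and 1 higher), 3 in undifferentiated ΔG, 7 in ΔPG after RA, 8 in ΔG after RA, 4 in the ΔPG interaction (and 1 higher) and 5 in the ΔG interaction. Over all genes, 4230, 624, 487, 1363, 3045 and 575 were lower in the same order, of 21979 genes in ΔPG and 22048 in ΔG. In undifferentiated ΔPG and the ΔPG interaction, 3696 and 3342 genes were higher. With an adjusted p under 0.05 and a fold over 1.5, they numbered 3 in ΔG after RA and 0 in the ΔPG interaction. With genes of a mean rlog of at least 3 there were 3 in ΔG after RA and 1 in the ΔG interaction, since Col4a5 or Col4a6 were not tested. With the GC trend removed there were 0 in undifferentiated ΔPG cells, 3 in ΔG after RA, 3 in the ΔPG interaction and 1 in the ΔG interaction. With the length trend removed there were 3 in ΔG after RA and 0 in the ΔPG interaction, with 1 higher. Both trends were fitted on genes above the same floor. With the 4C positions read as NCBIM37, an alternative added after seeing the data, 1 member in place of 4 overlapped regions of both replicates. Where no construction is named, the cause was not tested.

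Leaving out 1 sample gave 0 to 1 members lower in undifferentiated ΔG, 4 to 5 in ΔG after RA, 2 to 3 in the ΔG interaction, and 8 to 9 higher in the response of het and 7 to 8 of hom ΔPG cells. In undifferentiated ΔPG cells 3 members and in ΔPG after RA 4 members were lower without any single sample.

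Signs changed as follows. With the GC trend removed, Col4a5 in undifferentiated ΔPG went to 0.026 and Hspg2 in the ΔPG interaction to -0.105. In undifferentiated ΔG cells quantile normalization gave Col4a6 0.0089, Lamb1 0.0068 and Lamc1 -0.0063, and removal of the length trend gave Lamb1 0.024. Leaving out 1 sample gave these ranges: in undifferentiated ΔPG Col4a5 -0.161 to 0.028 and Col4a6 -0.053 to 0.013, in undifferentiated ΔG Col4a6 -0.064 to 0.045, Lamb1 -0.069 to 0.079, Lamc1 -0.0085 to 0.017 and Hspg2 -0.0011 to 0.080, in ΔPG after RA Col4a6 -0.155 to 0.038, in ΔG after RA Hspg2 -0.0047 to 0.079, in the ΔPG interaction Col4a6 -0.135 to 0.058 and in the ΔG interaction Hspg2 -0.050 to 0.036.

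The replicate block changed 0 member calls (4 members stayed lower in ΔPG after RA). Deviations of same-numbered samples correlated between -0.026 and 0.085, and in 0 of 8 comparisons was every pair above 0.1, so the numbers were not taken to pair the samples. Over all genes the block took the calls in undifferentiated ΔG from 78 higher and 139 lower to 19 and 25, and in ΔPG after RA from 53 and 133 to 27 and 85. The limits and corrections above moved other counts over all genes by more than 1.5 times: with the GC trend removed, the counts in undifferentiated ΔPG went from 1510 and 1383 to 539 and 344, and in the ΔPG interaction from 1476 and 1580 to 443 and 674. The stricter limits gave 852 lower in undifferentiated ΔPG, 46 and 71 in undifferentiated ΔG, 34 higher in ΔPG after RA, 81 and 194 in ΔG after RA, 933 higher in the ΔPG and 137 and 131 in the ΔG interaction. With no limit on the difference the higher and lower counts were 3696 and 4230 in undifferentiated ΔPG, 528 and 624 in undifferentiated ΔG, 519 and 487 in ΔPG after RA, 1070 and 1363 in ΔG after RA, 3342 and 3045 in the ΔPG and 589 and 575 in the ΔG interaction, and 4989 to 6979 in the responses to RA. Quantile normalization gave 78 lower in undifferentiated ΔG. Depth is unknown, so what it limits could not be stated.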
